A study of Mus musculus with 9 samples.

Results

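The mRNAs of 6 kinases that act on cilia and flagella were followed in the testes of wild type and Rfx2-/- mice. The 6 genes, Mak, Ick, Cdk20, Stk36, Ulk4 and Stk33, were chosen by name from the 23074 genes of the count table. RNA-Seq had been performed on decapsulated testes, with 1 library from each of 5 wild type mice (wild type replicates 1 to 5) and 4 Rfx2-/- mice (Rfx2-/- replicates 1 to 4), all aged 29 to 30 days after birth and of a mixed C57BL/6, 129/Sv and FVB/N background. The mutant mice were homozygous for an Rfx2 allele that lacks exon 7 in every tissue, and the wild type mice carried no modified allele named in the labels. The comparison asks which testis mRNAs depend on RFX2.

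RFX2 belongs to the RFX family of transcription factors, which bind a DNA element called the X box and control many genes of cilia. Male germ cells build a single long flagellum, a modified motile cilium, once they become haploid spermatids, and spermatids of Rfx2-/- mice stop developing while they are still round. The length of a cilium is set by traffic of intraflagellar transport (IFT) particles to its tip and back. MAK and ICK (also called CILK1) are related kinases that work at the tip and restrain cilium length, and CDK20 (also called CCRK) is the kinase that activates them. STK36 is the mammalian counterpart of the fly kinase Fused, and is required for the central pair of microtubules of motile cilia. ULK4 is a pseudokinase, with the fold of a kinase but poor catalytic activity, that binds STK36. STK33 is a kinase of spermatids that is required for assembly of the sperm flagellum and acts on the A-kinase anchoring proteins of the fibrous sheath, the sleeve around the sperm tail.

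The mRNAs of all 6 kinases were detected in wild type testis, and their mRNA levels in Rfx2-/- testis fell into 2 sets. Cdk20, Ulk4 and Stk33 were lower, to 13.96%, 35.4% and 35.1% of the wild type level, whereas Mak, Ick and Stk36 were at 72.6% to 80.5% and did not pass the test. Calls were made with the quasi-likelihood test of edgeR on 15613 genes, and required a change above 2-fold together with an adjusted p no higher than 0.01. By this rule 3 of the 6 kinases were called lower, compared with 3.68% of all genes tested. None (0 of 6) was called higher, compared with 0.826% of all genes tested. The ranges of the genotypes in CPM (counts per 1000000 counts, with TMM scaling) did not overlap for the same 3 kinases, which was true for 15.9% of all genes tested. All 6 fitted changes were below 0, with a median of -0.98 on the log2 scale, compared with a median of 0.03 over all genes. Scaling by total counts in place of TMM moved that median over all genes to 0.16 and made the changes of the kinases smaller by a similar amount. The calls and directions of the 6 kinases were the same under that scaling.

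**Figure D1:**
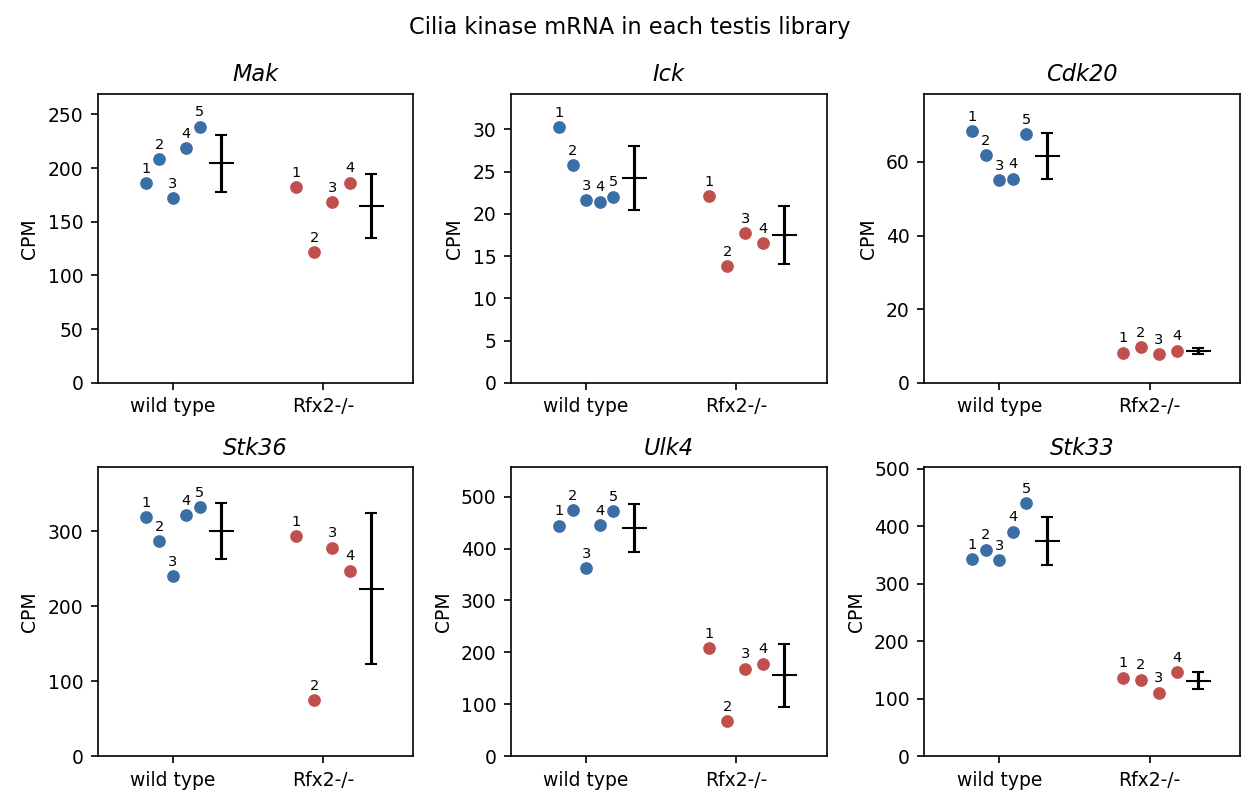
Each panel shows 1 kinase gene, with its level in CPM (linear axis from 0) in each of the 5 wild type (blue) and 4 Rfx2-/- (red) libraries. Numbers are replicate numbers and the bar beside each group is the mean with its SD. The groups are apart for Cdk20, Ulk4 and Stk33, and Rfx2-/- replicate 2 lies far below the other Rfx2-/- libraries for Stk36 and Ulk4.

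Rfx2 itself was measured as a check of the labels. Its level was 470.5 to 623.2 CPM in the wild type libraries and 61.5 to 199.0 CPM in the Rfx2-/- libraries, a log2 change of -1.91 (SE 0.28, adjusted p = 7.81e-04). Reads from its remaining exons are counted, so some signal is retained in the mutant. The lowest Rfx2 value, 61.5 CPM, was in Rfx2-/- replicate 2. Library totals were 13574764 to 15193330 counts in 8 libraries and 28800855 in Rfx2-/- replicate 1. At this depth every kinase had at least 114 counts in every library. The lowest counts were those of Cdk20 in Rfx2-/- libraries, 114 to 247, for which counting error is not small beside the spread between libraries. Each mouse gave 1 library, so spread between mice and spread from library preparation cannot be told apart. The p-values of edgeR rest on both together, with the spread of each gene moderated by that of the other genes. For 14 genes listed as markers of elongating spermatids, the summed level was 12710 to 24740 CPM in wild type libraries. It was 10920 to 14830 CPM in Rfx2-/- libraries. Of the 14 fitted changes, 13 were below 0 on the log2 scale (median -0.66). The 1 gene called lower was Spata18 (log2 fold change -2.27, adjusted p = 1.84e-04, edgeR). The study reports that mutant spermatids stop before they elongate, so in Rfx2-/- libraries this sum is not a measure of elongating spermatids. The summed level of 10 round spermatid markers was 1498 to 2221 and 1709 to 2267 CPM, that of 10 pachytene spermatocyte markers was 4778 to 6140 and 4764 to 8349 CPM, and none of these 20 markers was called. None of the markers of spermatogonia, Sertoli, Leydig, peritubular or macrophage cells was called either. The summed level of 4 markers of multiciliated epithelium was 134.7 to 201.7 (wild type) and 90.6 to 143.4 CPM (Rfx2-/-). Mcidas, a defining gene of that cell type, was at 3 counts or fewer in every library. Foxj1 and Dynlrb2, the 2 markers tested, were expressed, with wild type means of 113.9 and 52.4 CPM and mutant means of 82.5 and 30.3 CPM. Their log2 fold changes were -0.47 and -0.79 (adjusted p = 0.139 and 0.00750, edgeR), and neither was called. The low counts of Mcidas alone do not show whether such cells were present. The part of these shifts in the values of the kinases was not tested. In whole testis, fewer cells of a type and less RNA per cell cannot be told apart.

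Short stretches of promoter are shown here for the 5 kinases with a RefSeq promoter entry (GRCm38.p6), because the X box is the element that RFX proteins bind. Each window of 300 bases, from 250 before to 50 after an annotated start, was searched on both strands for the arms of the X box, GTTGCC and GGCAAC, which are reverse complements of each other, separated by 1 to 3 bases, and scored by the number of matching letters out of 12. This scoring was chosen after the sequences had been seen. The lines below give 30 bases around a best match, 5′ to 3′ on the strand of the gene, with the matched stretch in capitals. Where several placements had the same score, the one nearest to the start is shown, and for genes with 2 entries the entry at the start of the gene.
Cdk20 (chr13:64432517-64432546, plus strand): gacgcgttATTGCTAGGCAACgcttgcagg
Stk36 (chr1:74601451-74601480, plus strand): ctgacgccGTTTCTAGGCAACtgaagactc
Ulk4 (chr9:121277182-121277211, minus strand): tctcgcagGTTGTCATGGTGACgcagaggg
Ick (chr9:78109159-78109188, plus strand): tgttccacGTTGAGCCGGAACttacaccca
Mak (chr13:41079706-41079735, minus strand): cgtgtcgcGTCCGCTCGGCCCCgccctcca

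The promoters of Cdk20 and Stk36 had the best matches, 10 of 12 letters each, and in both the right arm GGCAAC was complete. A score of at least 10 was found in 5.74% of the 32851 RefSeq promoters, and a complete arm in 12.5%. The Cdk20 match lay 28 to 16 bases before the RefSeq start and the Stk36 match 4 to 16 bases after its own. The RefSeq start of Cdk20 lies inside the gene span of GENCODE M21, which begins at 64432314, so the Cdk20 match is downstream of the GENCODE start. The best Ulk4 match was 9 letters, which 31.1% of promoters reached. The entries at the start of the Ick and Mak genes had 8 and 7 letters, which 87.9% and 99.9% of promoters reached, and their second entries had 9 and 8. A match is a description of the letters and not a binding site. The log2 changes of Cdk20 and Stk36, which had the same score, were -2.84 and -0.42. A relation between the score and the change of the mRNA was not tested. The study's own list of promoters bound by RFX2 was made from dissociated germ cells of younger wild type mice, and was not remade here. Ulk4 and Stk33 were in that list, 2 of the 6, compared with 6.10% of the genes tested. Because age and cell preparation differ, absence from the list does not speak to binding in the testes used here.

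The mRNAs of the kinases upstream and downstream in the control of cilium length changed by different amounts. Cdk20 (ENSMUSG00000021483) lies on chromosome 13 (64432314 to 64441773 of GRCm38, plus strand) with 8 exons. Its level was 68.3, 61.9, 55.1, 55.4 and 67.5 CPM in wild type replicates 1 to 5, and 8.20, 9.75, 7.76 and 8.69 CPM in Rfx2-/- replicates 1 to 4. All 4 mutant libraries were far below every wild type library, and the spread within each genotype was narrow. The mean was 61.6 ± 6.33 CPM (SD, n = 5) and 8.60 ± 0.857 CPM (SD, n = 4), and the log2 fold change was -2.84 (SE 0.14, 95% interval -3.15 to -2.53, adjusted p = 7.81e-08). Cdk20 had the largest decrease of the 6 kinases, and it was the only one called when the change was tested against the 2-fold limit itself.

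Mak (ENSMUSG00000021363), one of the targets of CDK20, lies on chromosome 13 (41025008 to 41079706, minus strand) with 16 exons. Its level was 185.6, 208.0, 171.8, 218.5 and 238.6 CPM in wild type replicates 1 to 5, and 182.1, 121.6, 168.2 and 186.3 CPM in Rfx2-/- replicates 1 to 4. The highest mutant library was above 2 of the wild type libraries, so the groups overlap, and Rfx2-/- replicate 2 was the lowest of the 9. The log2 fold change was -0.31 (SE 0.16, 95% interval -0.67 to 0.04, adjusted p = 0.231). The interval includes no change and excludes a 2-fold decrease.

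Ick (ENSMUSG00000009828), the closest relative of Mak in this set, lies on chromosome 9 (78109192 to 78172107, plus strand) with 17 exons. Its level was 30.3, 25.8, 21.6, 21.4 and 22.1 CPM in wild type replicates 1 to 5, and 22.1, 13.8, 17.7 and 16.5 CPM in Rfx2-/- replicates 1 to 4. Rfx2-/- replicate 1 was within the range of the wild type, and the other mutant libraries were below it. The log2 fold change was -0.46 (SE 0.17, 95% interval -0.83 to -0.09). Its adjusted p was 0.106 over all genes. Across the alternatives that test for any change it ranged from 0.0429 to 0.241. The test against the 2-fold limit asks a different question and is not part of this range.

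Within each library, the ratio of 2 mRNAs does not depend on the scaling between libraries. The log2 ratio of Mak to Ick counts was 2.62 to 3.43 in wild type and 3.04 to 3.49 in Rfx2-/- libraries, and the groups overlap. The difference in the mean was 0.15 (exact two-sided permutation test, p = 0.460, adjusted over 15 pairs 0.575), with values of 0.03 to 0.24 when single libraries were left out. The log2 ratio of Cdk20 to Mak counts was -1.98 to -1.44 in wild type and -4.47 to -3.64 in Rfx2-/- libraries, without overlap. The difference was 2.51 when taken as Mak over Cdk20 (exact permutation test, p = 0.0159, adjusted 0.0265), where 0.0159 is the smallest p that the possible assignments of 9 libraries allow. Ick over Cdk20 differed by 2.36 with the same p. The ratio of the mRNA of the activating kinase to that of either target was therefore lower in the mutant. A change in the ratio between the mRNAs of the targets was not resolved.

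The mRNAs of the kinase and pseudokinase of the central pair changed by different amounts too. Ulk4 (ENSMUSG00000040936) lies on chromosome 9 (120955351 to 121277197, minus strand) with 37 exons. Its span overlaps Ctnnb1 on the other strand, but 0 of their exon bases are shared. Its level was 444.3, 474.0, 361.8, 444.7 and 472.4 CPM in wild type replicates 1 to 5, and 208.3, 67.2, 168.5 and 178.5 CPM in Rfx2-/- replicates 1 to 4. All mutant libraries were below the lowest wild type library, and Rfx2-/- replicate 2 was well below the other mutant libraries. The log2 fold change was -1.50 (SE 0.27, 95% interval -2.09 to -0.91, adjusted p = 0.00330), and without Rfx2-/- replicate 2 it was -1.25 (adjusted p = 1.49e-05). The interval reaches past the 2-fold limit of -1, and tested against that limit itself the adjusted p was 0.355. The call was lost, with an adjusted p of 0.01002 to 0.01293, when wild type replicate 1, 2 or 5 or Rfx2-/- replicate 3 or 4 was left out.

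Stk36 (ENSMUSG00000033276) lies on chromosome 1 (74601445 to 74636894, plus strand) with 28 exons. Its level was 318.2, 286.8, 240.1, 320.9 and 332.1 CPM in wild type replicates 1 to 5, and 293.1, 74.8, 277.7 and 247.1 CPM in Rfx2-/- replicates 1 to 4. The mutant libraries other than replicate 2 were within the range of the wild type. The log2 fold change was -0.42 (SE 0.31, 95% interval -1.10 to 0.25, adjusted p = 0.395). Without Rfx2-/- replicate 2 it was -0.14 (adjusted p = 0.529), so most of the fitted decrease rests on that library. The log2 ratio of Stk36 to Ulk4 counts was -0.72 to -0.47 in wild type and 0.15 to 0.72 in Rfx2-/- libraries, without overlap. Wild type testis thus held more Ulk4 than Stk36 counts in 5 of 5 libraries, and Rfx2-/- testis more Stk36 than Ulk4 counts in 4 of 4. Counts also depend on exon length, which differs between these genes. Per kilobase of exon, Ulk4 was above Stk36 in 5 of 5 wild type libraries, and Stk36 above Ulk4 in 3 of 4 Rfx2-/- libraries. In Rfx2-/- replicate 2 the ratio of Stk36 to Ulk4 per kilobase was 0.885. Exon length does not affect the change in the ratio between genotypes. The mean difference was 1.01 on the log2 scale (exact permutation test, p = 0.0159, adjusted 0.0265).

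Stk33 (ENSMUSG00000031027), the kinase of the fibrous sheath, lies on chromosome 7 (109279223 to 109439081, minus strand) with 15 exons. Its level was 342.9, 359.5, 340.6, 390.6 and 440.5 CPM in wild type replicates 1 to 5, and 136.4, 133.3, 110.3 and 145.6 CPM in Rfx2-/- replicates 1 to 4. The genotypes were well apart, and Rfx2-/- replicate 2 was in the middle of the mutant libraries. The log2 fold change was -1.51 (SE 0.15, 95% interval -1.83 to -1.19, adjusted p = 2.31e-05), and tested against the 2-fold limit itself the adjusted p was 0.0170, above the limit of 0.01.

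**Figure D2:**
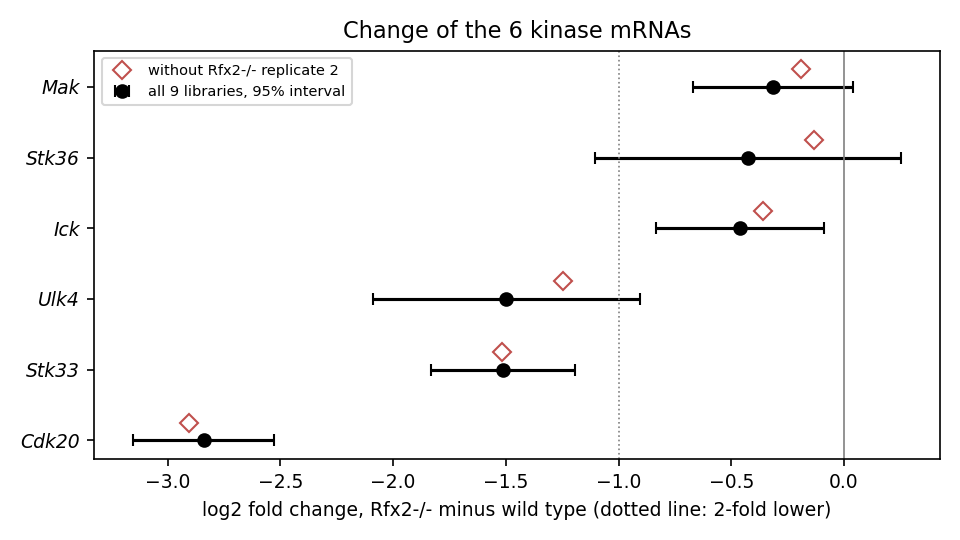
The log2 fold change of each kinase (Rfx2-/- minus wild type) is shown with its 95% interval from the fit of all 9 libraries (black), and as the value without Rfx2-/- replicate 2 (open red). The dotted line marks a 2-fold decrease. Cdk20 at -2.84 is apart from Stk33 and Ulk4 at -1.51 and -1.50, and Stk36 moves from -0.42 to -0.14 without that library.

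Of the 15 pairs of kinases, 9 changed their ratio past the threshold of adjusted p 0.05 (exact permutation test), each with the smallest possible p. These are not 9 separate results, because the pairs share genes and libraries. Apart from Cdk20 with Stk33, each passing pair joins a kinase called lower and one not called, and so largely restates the calls. The share of passing pairs among other genes was not tested. Mak and Ick each changed relative to Cdk20, Ulk4 and Stk33, by 1.04 to 2.51 on the log2 scale. Cdk20 fell relative to Stk33 by 1.32 and relative to Stk36 by 2.24, so its decrease was larger than theirs. The ratio of Ulk4 to Stk33 differed by -0.10 (adjusted p = 0.857, exact permutation test), which is within the SD of 0.76 among the mutant libraries. The ratio of Cdk20 to Ulk4 differed by -1.23 and missed the threshold (adjusted p = 0.0952, exact permutation test), as did that of Stk36 to Stk33 with 0.92 (adjusted p = 0.130, exact permutation test). Both of these pairs hold a gene that was low in Rfx2-/- replicate 2. When Rfx2-/- replicate 1, 3 or 4 was left out, 0 of the 15 pairs passed. The smallest p that 5 and 3 libraries allow is 0.0357, or 0.0595 after adjustment when 9 pairs reach it, so this design could pass the threshold only if more pairs reached that p. Without replicate 2, 11 pairs passed.

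**Figure D3:**
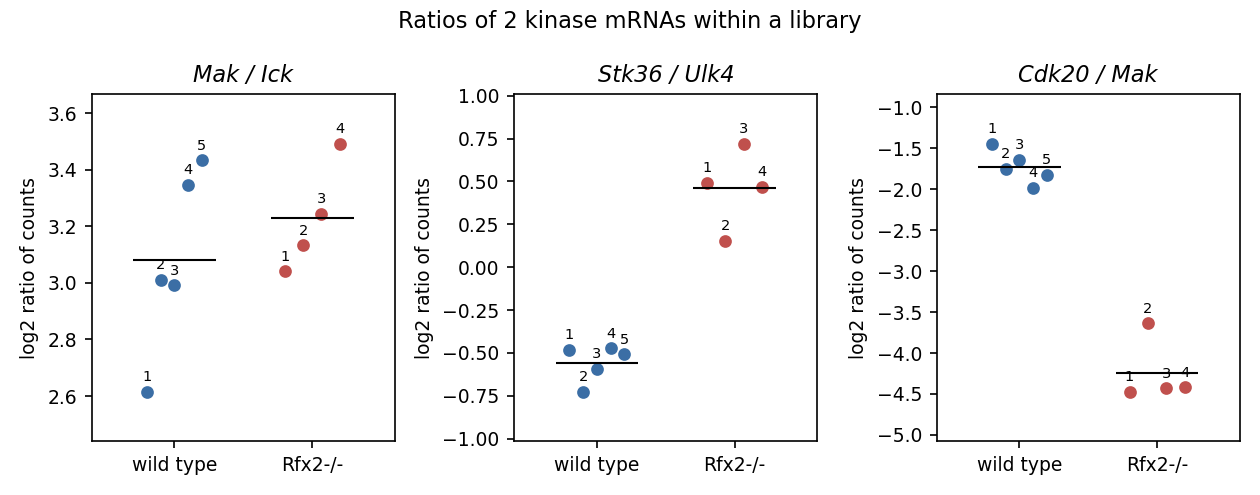
The log2 ratio of the counts of 2 kinase mRNAs is shown in each library, with the replicate number beside each point and a line at the mean of each genotype. The axes of the panels have different ranges. Genotypes overlap for Mak over Ick and are apart for Stk36 over Ulk4 and Cdk20 over Mak.

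Levels were compared between genes only after division by exon length (CPM per kilobase of merged coding-gene exons), which is approximate where a gene uses a short isoform in testis. In wild type testis the mean was 141.2 for Stk33, 101.0 for Ulk4, 54.7 for Stk36, 54.4 for Mak, 14.96 for Cdk20 and 2.89 CPM per kilobase for Ick. Neighbors in this order did not overlap except Stk36 and Mak, of which Stk36 was higher in 2 of 5 libraries. In Rfx2-/- testis the first 4 came together, with means of 49.5 for Stk33, 43.8 for Mak, 40.8 for Stk36 and 35.8 for Ulk4, and the ranges of neighbors in this order overlapped. Cdk20 and Ick were level at 2.09 CPM per kilobase, whereas in wild type libraries Cdk20 was 4.60 to 6.23 times as high as Ick. Mak was 13.7 to 24.2 times as high as Ick per kilobase in wild type and 18.4 to 25.1 times as high in Rfx2-/- libraries.

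Rfx2-/- replicate 2 departed from the other mutant libraries to a different extent for each kinase. Relative to the mean of the other 3 the log2 difference was -1.86 for Stk36 and -1.45 for Ulk4, compared with -0.55 for Mak, -0.42 for Ick, 0.24 for Cdk20 and 0.04 for Stk33. Genes in this library also differed by exon length. Among the tested genes within 20% of the exon length of the kinase, the median difference was -0.41 for Stk36 (2928 genes) and -0.24 for Ulk4 (3660 genes). Of these genes of like length, 0.990% were lower than Stk36 and 3.17% lower than Ulk4, whereas 26.2% were lower than Mak, 65.9% than Ick, 74.7% than Cdk20 and 44.5% than Stk33. The markers of cell types moved in this library too. Of the mutant libraries it had the highest summed level of the genes listed as markers of elongating spermatids (14830 CPM), which do not measure such cells in the mutant. The same held for markers of round spermatids (2267 CPM), pachytene spermatocytes (8349 CPM) and spermatogonia (207.8 CPM). It also held for those of Leydig cells (1126 CPM) and multiciliated epithelium (143.4 CPM). Summed levels in this library were the lowest of the mutant libraries for markers of peritubular cells (145.1 CPM) and macrophages (90.5 CPM). The part of exon length or of these cell types in the values of the kinases was not tested.

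Several of these genes share a promoter region with a neighbor on the opposite strand. The start of Fbxo9, an F-box gene of ubiquitin ligation, lies 127 bases from that of Ick. Its level was 41.3 to 52.8 CPM in wild type and 39.0 to 47.4 CPM in Rfx2-/- libraries (log2 fold change -0.02, SE 0.13, adjusted p = 0.917). Rnf25, a ubiquitin ligase gene 48 bases from Stk36, was at 57.9 to 87.5 CPM in wild type and 52.5 to 75.4 CPM in Rfx2-/- libraries (-0.21, SE 0.16, adjusted p = 0.406). Both pairs of ranges overlap, and neither the kinase nor its neighbor was called. The neighbors of Cdk20 (1700015C15Rik, 88 bases between starts), Ulk4 (Gm34655, 578 bases) and Stk33 (1700095J03Rik, 463 bases) are noncoding transcripts. They are absent from the count table and could not be analysed. Those of Cdk20 and Stk33 start inside the span of the kinase gene and overlap it on the other strand. Mak had no such neighbor within 1 kb. The libraries are not stated to be strand-specific, so reads of an antisense transcript over a kinase exon could be counted with it.

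Apart from the kinases themselves, none of the tested genes listed as their substrates and partners was called. All 8 tested partners and substrates of MAK, ICK and CDK20 had a fitted change below 0 (median -0.14), and 0 of 8 were called. They include the kinesin subunits Kif3a (-0.09) and Kif3b (-0.46, adjusted p = 0.114), which drive IFT toward the tip, and Tbc1d32 (-0.05), a ciliary protein that binds CDK20. Of the 2 anchoring proteins of the fibrous sheath, Akap4 was at -0.82 (adjusted p = 0.00988), which passes the p limit but not the 2-fold limit, and Akap3 was at -0.34 (adjusted p = 0.256). Of 14 Hedgehog genes around STK36 and ULK4, 0 were called, with a median of -0.06. The lowest was Kif27 at -0.94 (adjusted p = 0.0193), a kinesin that works with STK36 in motile cilia.

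Genes listed here for the central apparatus, the central pair and the proteins bound to it, held 4 lower genes of 12 and 0 higher (median -0.57). Spef2, required for the sperm tail, was at 63.1 to 86.8 CPM in wild type and 1.77 to 3.02 CPM in Rfx2-/- libraries (log2 fold change -5.03, adjusted p = 1.39e-08). Cfap70 was at 239.4 to 317.2 CPM and 38.1 to 48.8 CPM (-2.71, adjusted p = 1.40e-07). Spag17 and Cfap54 were lower, with log2 fold changes of -2.51 and -1.23 (adjusted p = 2.85e-04 and 0.00958), with the lowest values, 36.9 and 23.3 CPM, in Rfx2-/- replicate 2. The other 8 ranged from Hydin at -0.85 (adjusted p = 0.186) to Spef1 at 0.19 and were not called.

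Among 18 other kinases that act on cilia, 1 was called lower and 0 higher, with a median of -0.20. The lower gene was Cdkl1, a cyclin-dependent-kinase-like kinase. It had 203 to 259 counts in the wild type libraries and 7, 4, 4 and 1 counts in Rfx2-/- replicates 1 to 4, that is 15.7 to 20.2 CPM and 0.0654 to 0.272 CPM. The fitted log2 fold change was -6.32 (SE 0.26, adjusted p = 1.56e-08), which depends on few counts in the mutant. Of its relatives, Cdkl2 (-0.78, adjusted p = 0.00156) and Cdkl4 (0.76, adjusted p = 0.00393) passed the p limit in opposite directions without reaching 2-fold, and Cdkl3 was at -0.44 (adjusted p = 0.0935). Mok, the third kinase of the Mak and Ick family, was at 0.37 (adjusted p = 0.168). Of the relatives of Ulk4, Ulk1, Ulk2 and Ulk3, 0 of 3 were called.

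For comparison with other kinase families, 2 of 10 tested NIMA-related kinases were called lower (median -0.26) and 0 of 6 testis-specific serine kinases (median -0.34), with 0 higher in each. Nek8, a kinase of the ciliary base in which mutations cause kidney cysts, was at 25.97 to 29.25 CPM in wild type and 7.88 to 15.8 CPM in Rfx2-/- libraries (log2 fold change -1.18, adjusted p = 0.00108). Nek10, a kinase of motile cilia, was at 7.77 to 11.1 and 1.47 to 4.81 CPM (-1.33, adjusted p = 0.00850). The numbers of genes in these families are too small for their shares to be set apart from that of the 6 kinases, and no test of that difference was made.

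**Figure D4:**
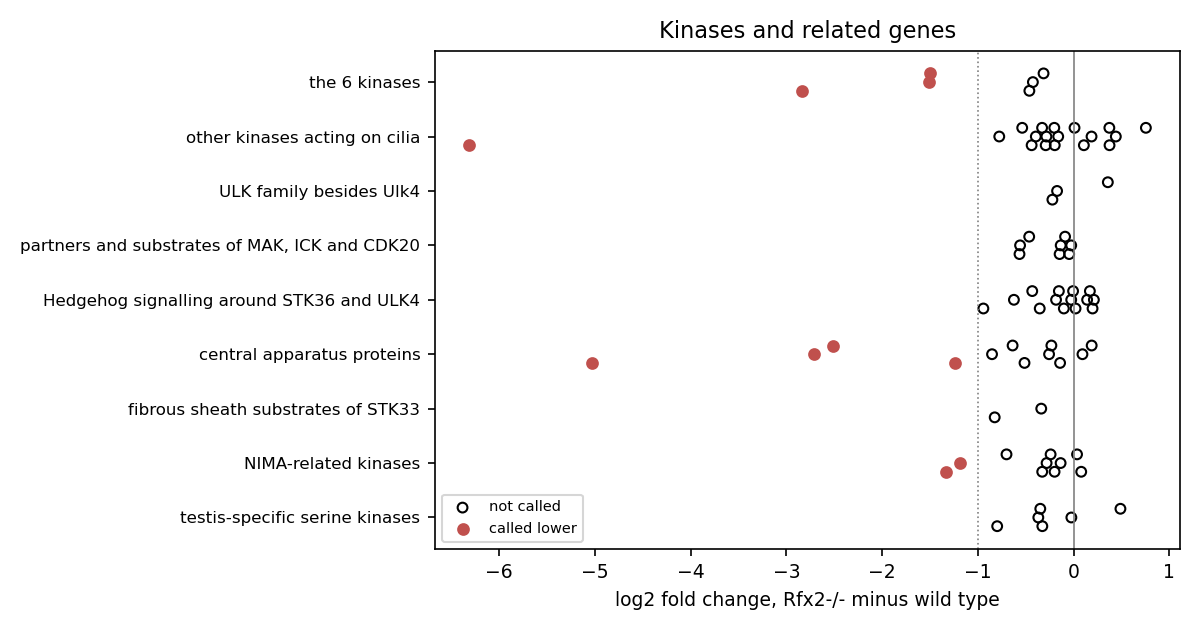
Each point is a tested gene, placed by its log2 fold change (Rfx2-/- minus wild type) and grouped by list. Filled red points were called lower and open points were not called. No gene in these lists was called higher, and the lowest points are Cdkl1 at -6.32 and Spef2 at -5.03.

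The genes whose levels ran closest to each kinase over the 9 libraries were found by Pearson's correlation of log2 CPM. These values are a description, since all genes share the genotype split and the same libraries. Cdk20 was closest to Cfap70 (r = 0.999), which is in the list for the central apparatus. Next were 2 genes with clone names, 4930444P10Rik and 1700018F24Rik (both 0.998), and all of these were called lower. Ulk4 was closest to Atxn7l1 (0.996), to Rfx2 itself (0.995) and to Egflam (0.995), and these too were called lower. Stk33 was closest to Dcdc2a (0.996), a doublecortin-domain gene of cilia, Ttc29 (0.996) and Larp6 (0.995), all called lower. Stk36 was closest to Sec24b (0.993), a coat protein of vesicles leaving the endoplasmic reticulum, and Chd5 (0.992), a chromatin remodeler of spermatids, and neither was called. Mak was closest to Mxd1 (0.986), Sept4 (0.978), a septin of the sperm annulus, and Usp25 (0.978), and Ick to Epn1 (0.974), Grik4 (0.968) and Prelid3a (0.964), and 0 of these 6 were called.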

How the data were processed

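The deposited values are read counts for each gene, whole numbers without normalization, which the authors made from single-read TruSeq RNA-Seq libraries of testis. The submitters' processing notes name CASAVA 1.8.2, STAR 2.4 and featureCounts 1.4.6 on GRCm38 (Ensembl 70). Reads with several genomic positions and reads over exons of different genes were discarded, so near-identical copies lose counts. Gene names and exon lengths were taken from GENCODE M21, which names 96.6% of the IDs. Groups follow the genotype in the labels, and replicate numbers follow the order of deposition. Libraries of a genotype differed by a chi-square of at least 3.84 per gene, so none was a repeat of another.

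Counts were tested with edgeR 4.0.16 in R 4.3.3 (filterByExpr, TMM, robust quasi-likelihood, genotype as the single factor) with Benjamini-Hochberg adjustment over 15613 genes. The limits of 0.01 and 2-fold are those of the authors, applied here to the adjusted p. The SE is the log2 fold change divided by the square root of F. Ratios used counts plus 0.5 and exact permutation tests over libraries. Correlations used log2 of CPM plus 0.5. Alternatives were DESeq2 1.42.0 (the study used DESeq), other scalings, no filter, removal of the trend with exon length, a test against the 2-fold limit and leaving out each library. The procedure was tested on simulated data. The 6 genes, the gene lists and the tests were chosen with earlier results of these data known. The genes named are the 6 kinases, Rfx2, each called gene of a list with the values of some others, which were added after their values were seen, the 3 best correlated genes of each kinase that carry a name, and the nearest opposite gene within 1 kb. Promoter sequences are from RefSeq (GRCm38.p6), with entries for 5 of the 6 kinases.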

Additional observations from a re-analysis of the deposited data

Results flagged for a closer look

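The level of Ulk4 in wild type replicate 3, 361.8 CPM, was far from the other wild type libraries, which were at 444.3 to 474.0 CPM. The gap was 0.735 of the range of the group, above Dixon's 95% critical value for 5 values. No other gap passed the critical value for its group size among the 18 sets of values examined (the 6 kinases, Rfx2, and the ratios Mak to Ick and Stk36 to Ulk4, in each genotype), where chance gives about 0.9. The gap below the other Rfx2-/- libraries of Stk36 in Rfx2-/- replicate 2 was a larger share of its range, but did not reach the critical value for 4 values, which is higher. Without wild type replicate 3, the log2 fold change of Ulk4 was -1.52 (adjusted p = 0.00698, edgeR).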

How the results depend on the processing

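Mak, Ick and Stk36 were not called and Cdk20 was called lower under every one of the 15 alternatives, 0 kinases were called higher, and no direction reversed. Tested against the 2-fold limit, 1 kinase was called lower (Cdk20), and Ulk4 at -1.50 and Stk33 at -1.51 missed the limit. When single libraries were left out, 2 to 3 kinases were called lower, since Ulk4 (log2 fold change -1.64 to -1.25) lost its call in 5 of 9 cases, and 0 to 11 pair ratios passed. The ratio of Stk36 to Ulk4 then differed by 0.93 to 1.12, and missed the threshold (adjusted p = 0.0595, the smallest exact permutation value 9 such pairs allow) without Rfx2-/- replicate 1, 3 or 4. Over all genes, 575 were called lower and 129 higher, 731 and 211 with DESeq2, 272 and 29 in the test against 2-fold, 483 and 191 with scaling by total counts, and 447 to 632 and 92 to 175 when single libraries were left out. No paired analysis was possible because the labels give the genotypes no shared replicate numbers and no litters. According to the study's methods some mice may have been littermates, which the tests do not take into account. The fitted decreases of Mak, Ick and Stk36 are under 2-fold and could not be called at any p. The wide interval of Stk36 rests on 1 library.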
